A study of Mus musculus with 8 samples.

Results

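Malat1, Meg3, Rian, Mirg, Miat, Snhg11 and Neat1 are long noncoding RNAs found in neurons, most of them known from the nucleus. They were followed here as a gauge of RNA other than translated mRNA in pulldowns of tagged ribosomes. Of the 7 names, 6 were found by symbol among the 56576 rows of the deposited gene table, Malat1 in an entry that it shares with mascRNA. No row bore the symbol Neat1, and 1 unnamed row with almost the same coordinates as the GENCODE gene was taken for it and is called Neat1 below.

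The libraries came from neocortical synaptosomes of mice at postnatal day 15. The genotype of the 4 controls (replicates 1, 3, 4 and 5) was Lhx6-Cre;Erbb4+/+;Rpl22HA/HA. That of the 4 Erbb4 conditional mutants (replicates 2, 3, 4 and 5) was Lhx6-Cre;Erbb4F/F;Rpl22HA/HA. All mice thus carried the Cre driver and the tagged Rpl22 allele, and both sexes were used. The Lhx6-Cre driver recombines in cortical interneurons whose precursors sit in the preoptic area and the medial ganglionic eminence (MGE), and Cre switches on a hemagglutinin tag on the ribosomal protein Rpl22, so that anti-HA beads pull down the ribosomes of these cells. ErbB4 is a receptor tyrosine kinase of interneurons, and the comparison asked which ribosome-associated RNAs differ without it. No library of unbound or total synaptosomal RNA was used here, so RNA held by tagged ribosomes and RNA carried along with them cannot be told apart. These are bulk samples, in which fewer cells of a type and less RNA per cell cannot be told apart either.

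Long noncoding RNAs are transcribed and mostly spliced like mRNAs but have no long conserved reading frame. Malat1 sits in nuclear speckles, bodies rich in splicing factors, and Neat1 is the scaffold of paraspeckles, which hold RNA-binding proteins such as Sfpq and Nono. Meg3, Rian and Mirg lie one after the other on the maternally expressed strand of the imprinted Dlk1-Dio3 region and host small nucleolar RNAs and microRNAs. Miat is a nuclear RNA of neurons that binds splicing factors, and Snhg11 is a neuronal host gene of small nucleolar RNAs. Some long noncoding RNAs are also known to associate with ribosomes.

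Each library held between 51010687 and 80226984 reads on genes. Erbb4 was at 1640, 5377, 4306 and 3034 normalized counts in control replicates 1, 3, 4 and 5 and at 1711, 1648, 1233 and 1048 in mutant replicates 2, 3, 4 and 5. The library labelled control replicate 1 was thus within the range of the mutants for the gene that defines the groups. The 13 MGE interneuron markers were all present, and Gad1, an enzyme of GABA synthesis, had 1130 to 8135 normalized counts. Markers of cells outside the Cre lineage were present too, with summed levels of 2669 to 4130 RPM (reads of a gene scaled to the library's total on genes) for 10 astrocyte genes and 3123 to 9363 for 10 oligodendrocyte genes. For 10 genes each, the sums were 1939 to 2690 for excitatory neurons, 3274 to 5927 for endothelium and 400 to 739 for microglia. The MGE marker sum, 532 to 6384 RPM, lay below all of these but microglia in control replicate 5 and mutant replicates 4 and 5. The lists hold different genes, so their sums do not give shares of cells.

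The 7 RNAs together took 0.272%, 0.125%, 0.198% and 0.260% of the reads on genes in control replicates 1, 3, 4 and 5. In mutant replicates 2, 3, 4 and 5 the shares were 0.148%, 0.157%, 0.281% and 0.313%. The control mean of 0.214% ± 0.068 (SD, n = 4) and the mutant mean of 0.225% ± 0.084 (SD, n = 4) differed by far less than the spread within either genotype. Malat1 alone made up 54.7% to 72.9% of this sum in controls and 60.4% to 72.1% in mutants. Meg3 followed with 12.9% to 19.5% over the 8 libraries and Snhg11 with 9.60% to 19.4%, while Mirg never passed 0.201%. Mutants with the replicate numbers 4 and 5 had the largest sums of all libraries, and control replicate 3 the smallest.

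**Figure D1:**
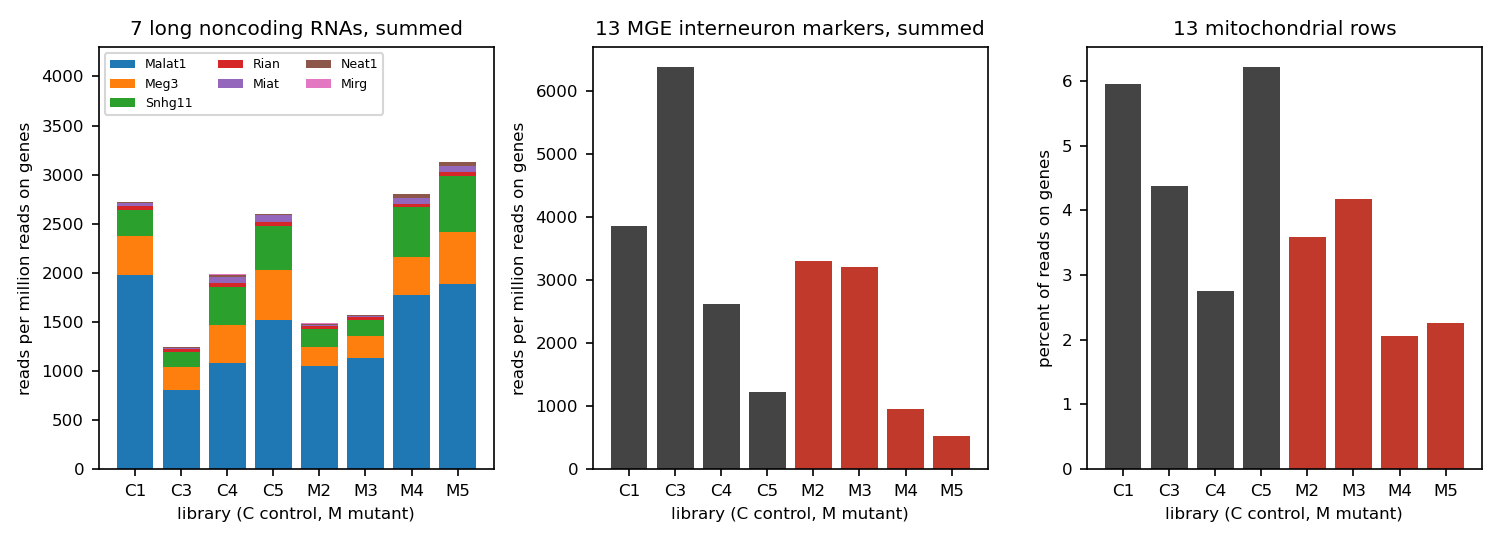
Bars give, for each library (C control, M Erbb4 mutant, with the replicate number), the summed RPM of the 7 long noncoding RNAs stacked by RNA (left), of 13 MGE interneuron markers (middle) and the percent of reads on the mitochondrial chromosome (right, grey controls and red mutants). The summed long noncoding RNAs ran from 1246 RPM in control replicate 3 to 3130 in mutant replicate 5, which were the libraries with the highest (6384) and the lowest (532) marker sums.

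The marker sum of the tagged cells ran the other way in several libraries. It was 3868, 6384, 2616 and 1229 RPM in control replicates 1, 3, 4 and 5 and 3301, 3204, 958 and 532 in mutant replicates 2, 3, 4 and 5. Sst had the most counts of the 13 markers in every library and so weighed most in this sum. It ran from 5964 normalized counts in mutant replicate 5 to 367992 in control replicate 3. The markers did not all vary so widely, with Slc32a1 at 2762 to 40646 and Sox6 at 950 to 1479 over the 8 libraries. The sum is therefore no even measure of the tagged cells. The library labelled control replicate 1 was an exception, with both a high sum of long noncoding RNAs (2718 RPM) and a high marker sum. It also had the highest oligodendrocyte marker sum, 9363 RPM against 3123 to 5147 in the others. Mbp had the most counts of that list, with 535543 normalized counts in this library and 141073 to 268287 in the others. Mitochondrial reads, another gauge of RNA that cytoplasmic ribosomes do not translate, took 5.96%, 4.37%, 2.75% and 6.21% in the controls and 3.59%, 4.17%, 2.06% and 2.26% in the mutants. Across all libraries they did not follow the long noncoding RNAs, since mutant replicates 4 and 5 had the lowest mitochondrial shares. Within the controls, replicates 1 and 5 were the highest in both. The part of interneuron content or of other cell types in these levels was not tested.

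Scaled by annotated exon length, as RPM per kilobase, Malat1 had the highest level of the 7, with a median of 190 over the 8 libraries (115 to 284). Snhg11 came next at 37.9 (17.9 to 67.6) and then Meg3 at 21.1 (10.6 to 28.8). Each step of this order held in 8 of 8 libraries, and the ratio of Malat1 to Snhg11 ran from 3.44 to 9.26. Miat had a median of 4.59 (0.987 to 7.35) and Rian of 1.94 (1.6 to 2.27), and Miat was the higher of this pair in 5 of 8 libraries only, so they did not separate. Neat1 had a median of 0.807 (0.379 to 2.13) and lay below Rian in 7 of 8 libraries. Mirg was lowest at 0.349 (0.171 to 0.427), below Neat1 in 8 of 8. The lengths are those of all annotated exons, and the regions the authors counted were a subset of unknown length, so these levels are approximate.

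The study's methods call a gene by 2 thresholds, p no higher than 0.05 before adjustment and a change of 1.5-fold or more. By this rule none of the 7 RNAs was called between genotypes by limma. Over all genes the same rule called 2229 of 31171 tested, or 7.15%, of which 3.17% of the tested genes were lower and 3.98% higher in mutants. On the recovered reads DESeq2 called 1 of the 7, where it called 9.09% of all genes, and edgeR 0, where it called 7.31%. At an unadjusted p of 0.05 without the fold threshold, limma and edgeR passed 0 of the 7 and DESeq2 2, beside 8.33%, 8.53% and 11.1% of all genes. The log2 fold changes lay below 0 for 5 of the 7 with a median of -0.11, beside 46.6% below 0 and a median of 0.06 over all genes tested. The smallest p an exact permutation test of 4 against 4 libraries allows is 0.029, and 1 of the 7 reached it. That was Rian, with every mutant below every control, as in 2.17% of the genes tested. The share of all genes separated in the other direction was not counted.

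**Figure D2:**
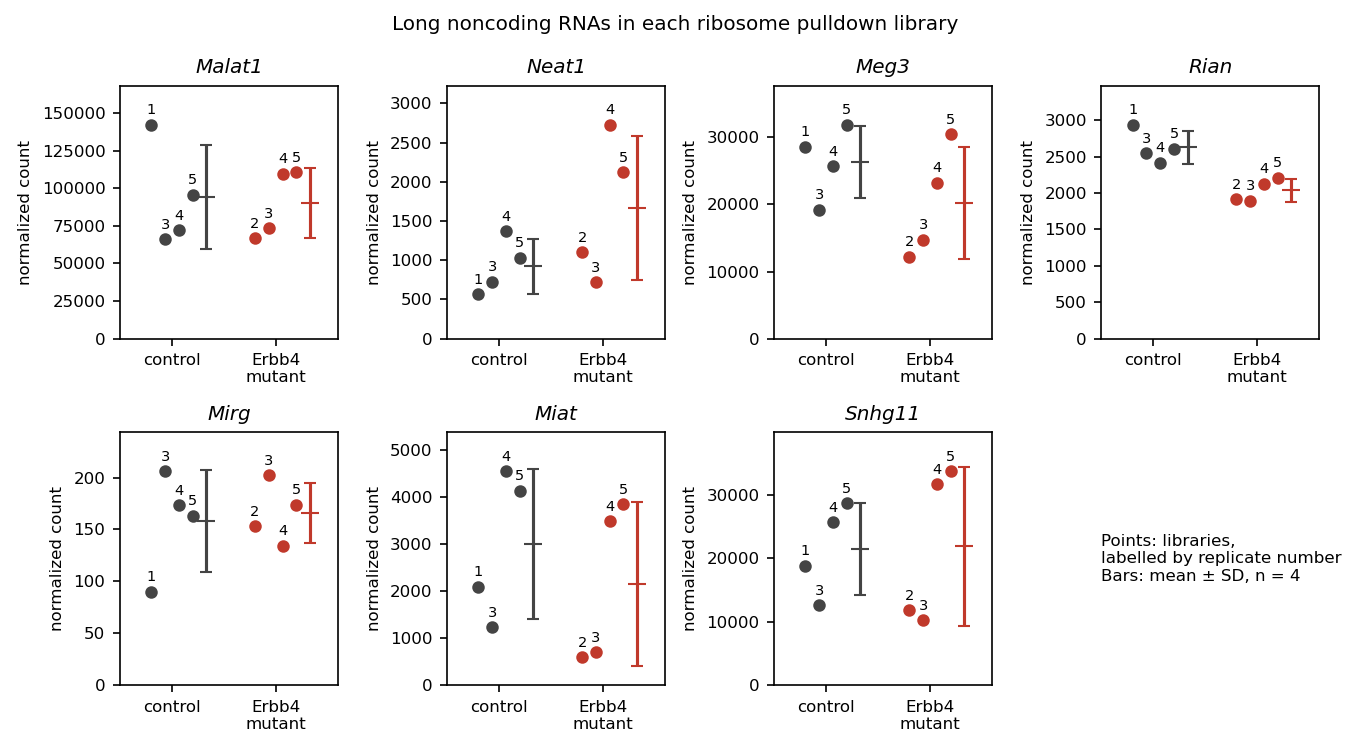
Each panel shows 1 long noncoding RNA, with its normalized count in each library as a point labelled by replicate number, and the mean and SD of 4 libraries beside the points (grey controls, red Erbb4 mutants; axes start at 0). Rian is the panel in which the genotypes do not overlap, and in the Miat and Snhg11 panels the libraries numbered 4 and 5 lie above those numbered 1 to 3 in both genotypes. The share of all genes with this step by library number was not counted.

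Rian, on chromosome 12 of mm10 from 109603945 to 109661716, hosts brain-expressed small nucleolar RNAs. Control replicates 1, 3, 4 and 5 had 2939, 2544, 2415 and 2608 normalized counts. Mutant replicates 2, 3, 4 and 5 had 1912, 1893, 2126 and 2211. All 4 mutants lay below all 4 controls, a pattern shared by 2.17% of the genes tested. On the log2 scale mutants differed from controls by -0.37 (standard error 0.17), short of 1.5-fold, with an adjusted limma p of 0.58 and an exact permutation p of 0.029 (two-sided), the smallest it can give. Its direction was the same in each of the 23 alternative fits, from -0.41 to -0.18. The separation depends on the scaling, since as RPM the controls ran from 30.9 to 41.3 and the mutants from 29.1 to 37.8. That scaling moved the median log2 fold change of all genes to 0.24, and relative to the median Rian was at -0.42 under either scaling.

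Meg3, on chromosome 12 from 109540996 to 109571729, is the first RNA of the same maternal unit and is known as a growth-restraining RNA. Its values were 28614, 19203, 25694 and 31935 normalized counts in control replicates 1, 3, 4 and 5. In mutant replicates 2, 3, 4 and 5 they were 12210, 14751, 23280 and 30510, so mutants numbered 2 and 3 lay below every control and the other 2 within the control range. The difference in log2 means was -0.45 (standard error 0.30), with an adjusted limma p of 0.62 and an exact permutation p of 0.23. Without mutant replicate 5 it was -0.68 and met the thresholds, so 1 library decided this call.

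Mirg, on chromosome 12 from 109729764 to 109749455, is the downstream end of the unit and the precursor of a microRNA cluster. It had the fewest reads of the 7, with 90.0, 206, 173 and 163 normalized counts in controls and 153, 202, 134 and 174 in mutants. Apart from the low value of the library labelled control replicate 1, the genotypes overlapped throughout. Its log2 fold change was 0.11 (standard error 0.39), the exact permutation p was 0.80, and the sign turned without control replicate 1, to -0.13.

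Many microRNAs are cut from these hosts. RefSeq places 19 loci with 35 mature sequences inside Meg3, Rian and Mirg (build GRCm38.p6, the assembly of mm10), 26 of the mature sequences in Mirg. Of the 19, 8 had a row under their own symbol, none of which passed 23 reads in any library. A further 3 (Mir382, Mir668 and Mir412) were matched by coordinates to unnamed rows at 0 in all libraries, so the rows for the microRNA loci carry almost no information here. The mature sequences of the loci with most reads are shown with bases 2 to 8, the seed, in capitals, because they tell which small RNAs the host transcripts would give rise to. Mir496a and Mir154 lie in Mirg, and Mir1188 and Mir370 in Rian.
miR-496a-5p: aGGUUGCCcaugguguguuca
miR-496a-3p: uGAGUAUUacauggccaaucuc
miR-154-5p: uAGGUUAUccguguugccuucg
miR-154-3p: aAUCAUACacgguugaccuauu
miR-1188-5p: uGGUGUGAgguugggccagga
miR-370-3p: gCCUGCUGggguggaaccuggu
The 35 mature sequences held 34 seeds, and the pair that shares 1 is miR-496a-5p with miR-453, whose sequence is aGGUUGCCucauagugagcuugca. Mir496a had 4 to 23 reads per library and Mir154 had 2 to 13, against 92 and 54 reads in all.

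**Figure D3:**
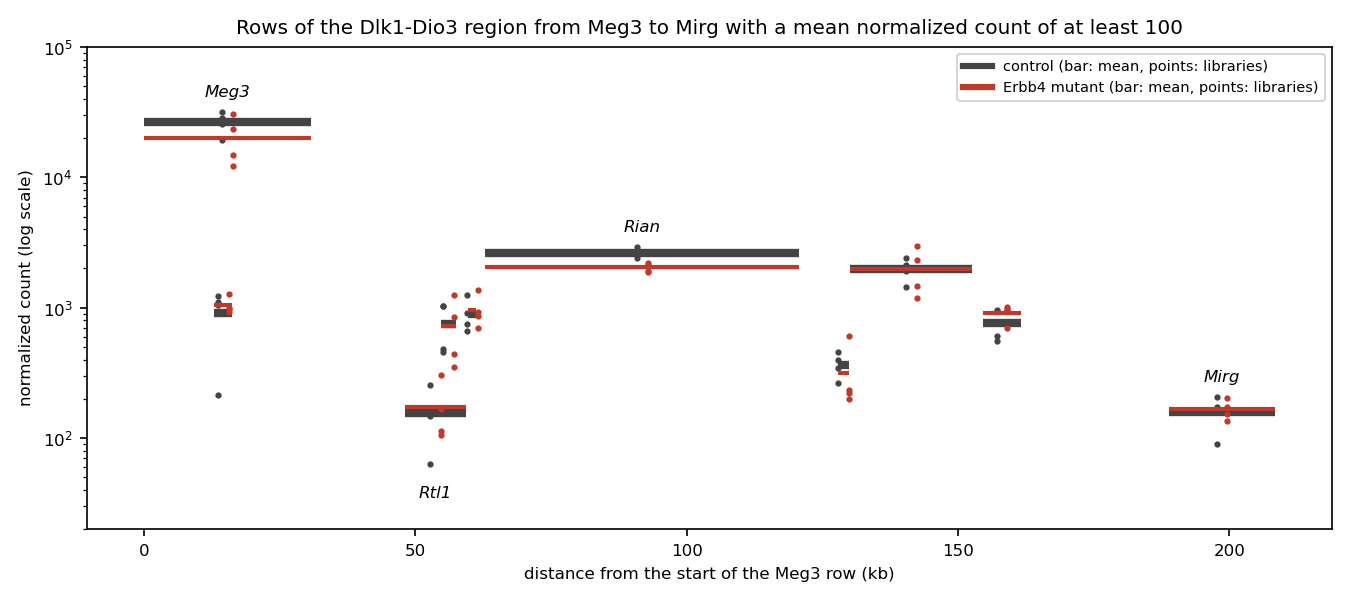
Each bar spans 1 row of the table between the start of Meg3 and the end of Mirg, placed by distance from the start of Meg3 in kilobases, at its mean normalized count on a log axis (grey controls, red Erbb4 mutants), with the 4 libraries of each genotype as points. Unlabelled bars are rows without a gene symbol, and the counts step down from Meg3 (12210 to 31935) through Rian (1893 to 2939) to Mirg (90.0 to 206).

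Of the 65 rows lying within this stretch, 54 were above 0 in at least 1 library and 10 had a mean of at least 100 normalized counts. An unnamed row between Rian and Mirg, from 109671049 to 109693642, had 1177 to 2954 normalized counts. Another, from 109695586 to 109702587, had 557 to 1004. One more unnamed row lies within Meg3, from 109553903 to 109557344, and had 929 to 1265 normalized counts in 7 libraries and 215 in the library labelled control replicate 1. The library kit does not mark strand, so reads of rows that overlap cannot be told apart by strand. Rtl1, the paternally expressed gene opposite the maternal unit, had 62.7 to 306 normalized counts. Of 8 genes in and beside the region (Dlk1, Rtl1, Dio3, Dio3os, Begain, Wdr25, Wars and Ppp2r5c), limma called 0 lower and 0 higher, with a median log2 fold change of 0.08. The shares over all genes tested were 3.17% lower and 3.98% higher.

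Miat, on chromosome 5 from 112213228 to 112228950, varied most among libraries, 7.77-fold from lowest to highest. It had 2086, 1224, 4545 and 4123 normalized counts in control replicates 1, 3, 4 and 5. Mutant replicates 2, 3, 4 and 5 had 585, 694, 3476 and 3836. The libraries numbered 4 and 5 lay above all others whatever the genotype, with 3476 to 4545 against 585 to 2086. Between genotypes the difference was -0.79 on the log2 scale (standard error 0.65), with an adjusted limma p of 0.68 and an exact permutation p of 0.31. Other models gave smaller differences, -0.48 with edgeR, -0.49 with DESeq2 and -0.43 with library weights. Among the libraries numbered 1 to 3 the mean difference was -1.32 on the log2 scale, and among those numbered 4 and 5 it was -0.25, each with 2 libraries a genotype.

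Snhg11, on chromosome 2 from 158375661 to 158386474, is classed as protein-coding in GENCODE M21 although it is known as a host of small nucleolar RNAs. It had 18788, 12571, 25655 and 28622 normalized counts in controls and 11823, 10184, 31645 and 33714 in mutants. The same 4 libraries were highest, 25655 to 33714 against 10184 to 18788. The spread was wider in mutants, so that 2 mutants lay below every control and 2 above. The log2 fold change of -0.11 (standard error 0.43, exact permutation p = 0.86) carried no direction, since it was 0.08 as RPM and 0.04 with edgeR.

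The Neat1 row, on chromosome 19 from 5824708 to 5845483, had 567, 723, 1366 and 1029 normalized counts in control replicates 1, 3, 4 and 5. Mutant replicates 2, 3, 4 and 5 had 1099, 721, 2730 and 2119, so 2 mutants lay above every control. For Neat1 the log2 fold change came to 0.75 (standard error 0.42), with an adjusted limma p of 0.58 and an exact permutation p of 0.20. It stayed above 0 in all 23 alternative fits, from 0.45 to 1.09, and met the thresholds in 7 of them. These were DESeq2, library weights, the replicate block (0.68), the fit without mutant replicate 3 (1.09) and the 3 fits with the library number as a covariate, described below with their limits. The replicate block compares only the libraries numbered 3, 4 and 5, the numbers found in both genotypes. An unnamed row overlapping the 5′ end of this gene, where its short and long forms share sequence, had 11.3 to 302 normalized counts in controls and 22.2 to 540 in mutants, again highest in the libraries numbered 4 and 5 (113 to 540 against 11.3 to 35.1). Of 15 paraspeckle protein genes 1 was lower and 0 higher by the same rule, beside 3.17% lower and 3.98% higher of all genes, with a median of 0.01. The lower gene was Pspc1, a core paraspeckle protein, at 1311 to 2563 normalized counts in controls and 732 to 1346 in mutants, with a log2 fold change of -0.70 and its top value in the library labelled control replicate 1.

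Malat1, on chromosome 19 from 5795690 to 5802674 and thus a close neighbour of Neat1, showed no ordering by genotype. Control replicates 1, 3, 4 and 5 had 142521, 66178, 72233 and 95758 normalized counts. Mutant replicates 2, 3, 4 and 5 had 66925, 73623, 109666 and 110584, all inside the control range. The log2 fold change was -0.03 (standard error 0.32), the exact permutation p was 0.97, and the sign turned with the scaling, to 0.15 as RPM. Of 14 genes for speckle and splicing proteins, limma called 0 lower and 0 higher, beside 3.17% and 3.98% of all genes, with a median of 0.11. An unnamed row inside Malat1 had 58.5 to 185 normalized counts.

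**Figure D4:**
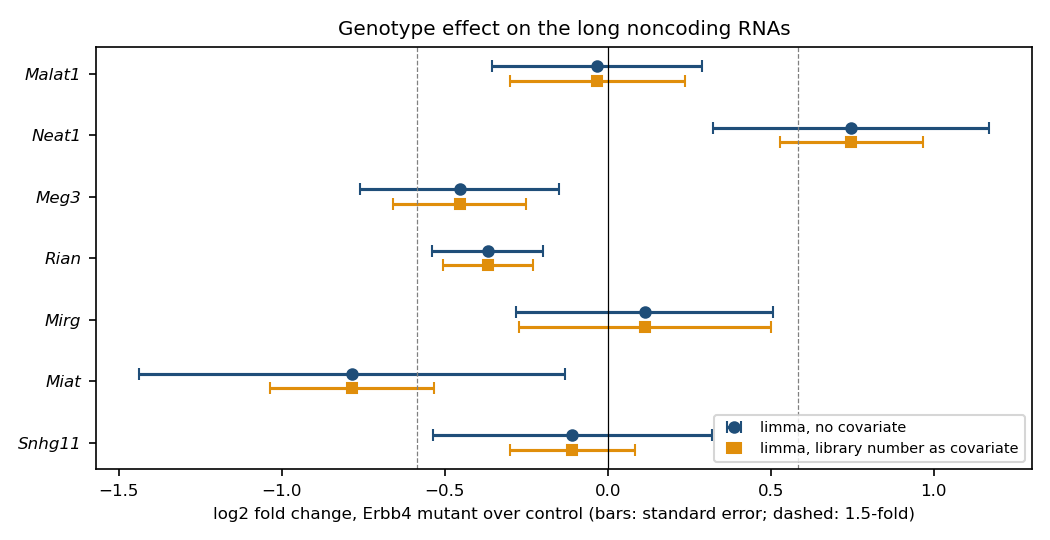
Log2 fold change of each long noncoding RNA between Erbb4 mutants and controls by limma (4 libraries each), with its standard error as a bar, without a covariate (circles) and with the library number, 4 and 5 against 1 to 3, as a covariate (squares). Dashed lines mark 1.5-fold, and Neat1 at 0.75 and Miat at -0.79 are the values outside them.

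The division by library number was seen in the values and is described by no label. How many of all genes divide in this way was not counted, so it cannot be called particular to these RNAs. The paper's supplement mentions 2 sequencing batches, but no label gives the batch of a library. Whether the division follows the batches therefore cannot be told. With the number as a covariate, limma called 2 of the 7 at the same thresholds, Neat1 higher and Miat lower, where 11.4% of all genes were called. The adjusted limma p was 0.115 for Neat1 and 0.143 for Miat, and edgeR and DESeq2 with the same covariate called this pair too, where they called 10.3% and 12.7% of all genes. The adjusted p was 0.105 and 0.158 with edgeR and 0.010 and 0.022 with DESeq2. At an adjusted p under 0.05, DESeq2 with the covariate passed 1707 genes lower and 1261 higher, against 36 and 32 without it. For limma these were 375 and 169, against 14 and 0 without the covariate. The limma estimates did not move, as both genotypes have 2 libraries in each class. Those of the count models did, for Miat from -0.48 to -0.78 with edgeR and from -0.49 to -0.79 with DESeq2. Because the division was taken from these data, the gain is no independent result.

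Over the 8 libraries the pattern of Miat was most like that of Snhg11 among the 7, with a Pearson r of 0.95 of log2 values, and Meg3 followed Miat (0.91) and Snhg11 (0.84). Malat1 and Mirg ran opposite (r = -0.78). These are descriptions over 8 points that share library depth and the step between library numbers. Among the other 19130 genes with a mean of at least 100 normalized counts, the nearest to Malat1 were Krcc1 (r = 0.98), Eed (0.97), a Polycomb subunit, and Ing1 (0.97), a chromatin reader. Nearest to Neat1 were Emilin1 (0.99), Nbr1 (0.99), an autophagy receptor, and Flii (0.99). Nearest to Miat were the chloride channel gene Clcn2 (0.99), Tle2 (0.98) and Msh3 (0.98), and to Snhg11 Dus3l, Atxn7l2 and Fcho1 (0.99, 0.98 and 0.98). Those of Meg3 were an unnamed row, Pcyt2 and Tmem191c (0.97 each). For Rian they were an unnamed row, Sox2 and Lekr1 (0.97 each), and for Mirg 3 unnamed rows (0.97 to 0.98). These are the 3 highest of 19130 values of r for each RNA, over 8 points only, and were picked for being high. Beside them, 1 in 20 of all these genes had an r above 0.70 with Meg3 and above 0.86 with Neat1.

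Since Meg3, Miat and Snhg11 moved together across libraries, their RefSeq promoters (GRCm38.p6, 300 bases around the start) are shown, with matches in capitals to the motifs searched on both strands. These were TATAAA (the TATA box), GGGCGG (the GC box) and TGACGTCA (the cAMP response element), which 13.6%, 35.7% and 1.79% of 32851 mouse promoters hold.
Meg3, chr12:109540746-109541045, plus strand: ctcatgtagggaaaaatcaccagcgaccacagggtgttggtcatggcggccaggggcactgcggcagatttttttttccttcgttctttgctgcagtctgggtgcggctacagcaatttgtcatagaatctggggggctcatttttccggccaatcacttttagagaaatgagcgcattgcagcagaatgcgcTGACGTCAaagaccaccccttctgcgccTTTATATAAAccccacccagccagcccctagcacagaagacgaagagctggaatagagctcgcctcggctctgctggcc
Miat, chr5:112228899-112229198, minus strand: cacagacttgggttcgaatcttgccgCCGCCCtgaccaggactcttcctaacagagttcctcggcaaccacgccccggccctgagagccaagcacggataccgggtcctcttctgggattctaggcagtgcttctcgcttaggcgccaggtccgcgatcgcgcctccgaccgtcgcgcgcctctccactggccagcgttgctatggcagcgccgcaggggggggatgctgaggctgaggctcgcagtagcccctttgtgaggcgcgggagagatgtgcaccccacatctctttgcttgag
Snhg11, chr2:158375463-158375762, plus strand: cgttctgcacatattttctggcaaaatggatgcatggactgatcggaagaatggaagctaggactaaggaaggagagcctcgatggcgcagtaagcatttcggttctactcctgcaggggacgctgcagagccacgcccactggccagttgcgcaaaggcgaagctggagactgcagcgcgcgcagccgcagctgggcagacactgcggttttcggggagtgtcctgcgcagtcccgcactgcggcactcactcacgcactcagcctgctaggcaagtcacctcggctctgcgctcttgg
The Meg3 promoter shown, at the start of the row counted here, held a cAMP response element and, between it and the start, TATAAA on both strands as 2 overlapping matches. RefSeq gives Meg3 another start inside the gene, whose window held no match and 1 CG. Miat had 1 GC box on the opposite strand and Snhg11 no match, so the 3 shared none of these letters. Their CG dinucleotides numbered 13, 25 and 21, against a median of 7 over all promoters, while the Rian window held 0 and those of Malat1 and Mirg 10 each. A match is not a binding site, and the RefSeq start of Mirg lies inside the row counted here.

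Other noncoding RNAs gave the 7 a frame. Their calls stand beside 3.17% of all genes tested called lower and 3.98% higher, here and in the lists that follow. Of 15 other neuronal or nuclear long noncoding RNAs tested, limma called 0 lower and 1 higher, with a median log2 fold change of 0.27. The higher one was Tug1, at 1498, 2968, 3278 and 3171 normalized counts in controls and 3684, 4208, 5257 and 4348 in mutants, a log2 fold change of 0.73. Here every mutant lay above every control, and the share of all genes with that pattern was not counted. Kcnq1ot1, the antisense RNA of an imprinted domain, had 13598 to 39009 normalized counts and was not called (log2 fold change -0.16). Firre, a nuclear RNA that organizes chromatin, showed the step by library number, with 2249 to 5838 in libraries numbered 4 and 5 against 404 to 792 in the others.

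Among long noncoding RNAs known from the cytoplasm 3 were tested, and 0 were called lower and 1 higher, with a median of 0.09. The higher one was Oip5os1, at 7517 to 17723 normalized counts in controls and 16078 to 21841 in mutants (log2 fold change 0.60). Norad, which binds Pumilio proteins, had 17637 to 42707. Of 17 other small nucleolar RNA host genes tested none was called, and 12 lay below 0 with a median of -0.27. The one with most reads was Snhg14, host of the Snord115 and Snord116 arrays of the Prader-Willi region, at 38407 to 68839 normalized counts in controls and 28983 to 43791 in mutants. Its libraries numbered 4 and 5 were lower than the others, 28983 to 38448 against 40550 to 68839, opposite to Snhg11. Of 12 structural RNAs looked for, 5 had a row and together reached at most 0.871 RPM, and the only one tested, Terc, was not called.

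Calls and medians for cell type markers stand beside these values. Over all genes tested, limma called 3.17% lower and 3.98% higher. Of the 13 MGE interneuron markers 4 were called lower and 0 higher (Gad1, Gad2, Pvalb and Kcnc1), with all 13 log2 fold changes below 0 and a median of -0.93. Endothelial markers had 3 called higher (Flt1, Kdr and Tek) and 0 lower, and their summed level did not overlap between genotypes, 3274 to 4344 RPM in controls and 5029 to 5927 in mutants. They did not all move one way, since 3 of the 10 had log2 fold changes below 0, with a median of 0.35. How often the sum of a gene list separates the genotypes was not counted. Oligodendrocyte markers had 3 called lower (Mog, Mag and Opalin) and 0 higher, with a median of -0.62. Among excitatory neuron markers Neurod6 was called lower, and the median of the list was -0.18. This list did not move one way, with 7 of the 10 log2 fold changes below 0. It holds the marker gene whose result is not reported here, so its calls are not given in full. Astrocyte and microglia markers had 0 called, with medians of -0.18 and -0.44. The genes called in these lists, Pspc1, Tug1 and Oip5os1 included, each had an adjusted limma p of 0.58. Whether these shifts had a part in the values of the 7 RNAs was not tested.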

How the data were processed

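RNA pulled down with anti-HA beads from neocortical synaptosomes was sequenced in 8 libraries, 4 controls and 4 Erbb4 conditional mutants, grouped by the genotype in the labels and named biological replicates in the study's methods. Per the labels and the study's methods, libraries were made from 1 ng of RNA with an ultra-low-input kit, and the authors aligned reads with STAR 2.4.0 to mm10, counted reads on the constitutive regions of Fast DB genes and scaled every library by its own DESeq2 size factor. The values they deposited are therefore a signal, normalized counts. Dividing by each library's smallest value above 0 gave whole reads for 100% of values (tolerance 0.01), 51010687 to 80226984 per library, and precision is limited by how libraries vary rather than by counting. No label assigns a library to a sequencing batch.

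Log2(normalized count + 1) was fitted with limma 3.58.1 (lmFit, eBayes with trend, R 4.3.3) over the 31171 genes with a mean of at least 10 in at least 1 genotype, with Benjamini-Hochberg adjustment. Fold changes on that scale understate changes of low genes. Calls use the study's thresholds, p no higher than 0.05 before adjustment and 1.5-fold or more. Each of the 7 RNAs was also compared by an exact two-sided permutation test over 70 divisions, 7 tests with no further adjustment. Alternatives were edgeR 4.0.16 and DESeq2 1.42.0 on the recovered reads, other pseudocounts, filters, scalings and variance models, a replicate block and leaving out each library. The replicate block rests on the numbers found in both genotypes, 3, 4 and 5. The fits were tested on simulated data.

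The 7 RNAs, the gene lists and the tests were chosen with earlier results of these data known. Neat1 was matched by coordinates to GENCODE M21 (GRCm38), which also gave exon lengths. Named genes are the 7, Erbb4, the called members of each list, rows overlapping the 7 and, for each of the 7, the 3 genes with the highest Pearson r. Other list members named (Gad1, Kcnq1ot1, Firre, Norad, Snhg14, Rtl1 and Terc) were chosen after their values were seen. Mitochondrial rows carry no symbol, so the 13 rows of that chromosome were summed by position. A result for 1 marker gene is not reported here.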

Additional observations from a re-analysis of the deposited data

Results flagged for a closer look

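Across 90 groups of 4 libraries, the 7 long noncoding RNAs in each genotype among them, 2 held a library that stood far apart, and chance alone flags about 1 group in 20, or 4.5 of 90. Neither was one of the 7. Pspc1, the paraspeckle protein gene, had 2563 normalized counts in the library labelled control replicate 1 and 1311 to 1478 in the other controls. The summed excitatory neuron markers were at 2690 RPM in control replicate 5 and at 2091 to 2140 in the other controls.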

How the results depend on the processing

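Scaling to RPM moved the median log2 fold change of all genes from 0.06 to 0.24 and the share of calls that were lower from 44.3% to 15.5%, while DESeq2 gave 55.5%, edgeR 52.9%, the replicate block 54.3% and a fit without control replicate 3 31.9%. Malat1 turned sign as RPM (0.15), with quantile normalization (0.28) and with library weights (0.29), and Snhg11 did so in these 3 (0.075, 0.050 and 0.16), with edgeR (0.038) and with DESeq2 (0.029). Mirg turned with library weights (-0.092). Called genes numbered 3630 with library weights and 14 at an adjusted p under 0.05 (limma, all lower, before adjustment p under 0.05 held for 1175 lower and 1421 higher genes). Neat1 met the thresholds with library weights (0.90) and DESeq2 (0.86), making 1 of the 7 called in each. The cause of these changes was not tested.

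Leaving out each library in turn gave log2 fold changes of -0.18 to 0.19 for Malat1, 0.45 to 1.09 for Neat1, -0.68 to -0.24 for Meg3, -0.41 to -0.31 for Rian, -0.13 to 0.26 for Mirg, -1.23 to -0.32 for Miat and -0.39 to 0.19 for Snhg11, with 1194 to 3767 genes and 0 to 1 of the 7 called. Called genes were 1194 without mutant replicate 4, 1229 without mutant replicate 5 and 3767 without control replicate 5. The summed share ran from 1945 to 2435 RPM in controls and from 1954 to 2503 in mutants. Without Malat1 it was 791 and 785.

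Replicate numbers 3, 4 and 5 occur in both genotypes. Deviations of same-numbered libraries correlated at 0.10, 0.098 and 0.082, not all above 0.1, and control replicate 5 correlated best with mutant replicate 4, so the numbers were not taken to pair the samples. Number 1 occurs only in controls and number 2 only in mutants, so the replicate block compares genotypes within numbers 3, 4 and 5 alone. Control replicate 1 and mutant replicate 2 add nothing to its estimates. With this block 3164 genes were called, Neat1 was 0.68 and called (1 of the 7), and Malat1 (0.32), Snhg11 (0.078) and Mirg (-0.10) changed sign, and Miat was -0.44. With the library number as a covariate, chosen after seeing the data, limma called 3558 genes and DESeq2 3974, with 2 of the 7 by either and by edgeR. Neat1 was 0.75 with limma, 0.78 with edgeR and 0.77 with DESeq2, and Miat -0.79, -0.78 and -0.79, against -0.48 with edgeR and -0.49 with DESeq2 without it. Rian kept its direction and was not called in any of these fits.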
